A study of Mus musculus with 12 samples.

Results

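Modified cytosines were measured in a short intergenic stretch of mouse chromosome 15 that lies upstream of Pvt1 and downstream of Myc. Its CpG dinucleotides lie at chr15:61868649-61868948 (mm9), in a covered stretch of 357 bp. The stretch starts 46695 bp past the end of Myc (chr15:61816946-61821929, plus strand) and ends 562 bp before the start of Pvt1 (chr15:61869542-62209651, plus strand), and the gene annotation of the same build places no exon, intron or UTR there. Each CpG cytosine of the stretch that every one of the 12 samples covered with 10 read-outs or more was taken, which gave 25 of the 384 CpG cytosines covered in the 14 loci of the experiment. The loci had been picked from earlier antibody-based maps of these cells, most because they differed between the genotypes and the rest because they did not, so that shares over all 384 include cytosines of loci picked for no difference. No CpG cytosine found in the stretch was lost to the coverage minimum. The samples were 3 replicates of v6.5, a mouse embryonic stem cell line, and 3 replicates of Tet2kd, the same line carrying a stable pSUPER-puro-Tet2shRNA vector, and the DNA of each replicate was divided between BS-seq and oxBS-seq. Per the study, the replicates were independent cultures, so p-values measure the spread between 3 cultures per genotype; whether the Tet2kd cultures came from 1 clone is not given in the sources used here. The cells of both genotypes were grown in serum and LIF. The Tet2kd cells had also been electroporated, selected with puromycin and picked as individual clones, whereas v6.5 was the parental line without a vector. Effects of the vector, of selection and of cloning thus cannot be told apart from those of the Tet2 knockdown. The sample titles of v6.5 contain the words knock-down while their genotype label names wild type, and the genotype label was followed. Transcripts of Tet2 were not analysed here.

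In mammals, 5-methylcytosine (5mC) is found mainly at CpG dinucleotides, where both strands carry a cytosine that can be methylated. TET enzymes, Tet2 among them, oxidize 5mC to 5-hydroxymethylcytosine (5hmC) and further, and so take part in the loss of methylation, while 5hmC is also found as a stable mark in embryonic stem cells. Myc encodes a transcription factor that drives growth, and Pvt1 is a long noncoding RNA gene next to it. In BS-seq, unmodified cytosine is read as T and both 5mC and 5hmC are read as C. The forms oxidized further than 5hmC are read as T in both assays, like unmodified cytosine. An oxidation step before the bisulfite makes 5hmC, too, read as T in oxBS-seq. There the C share, the percent of read-outs that are C, is close to the level of 5mC as far as oxidation is complete.

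The sequence from the first to the last CpG is shown because every measured CpG lies in it (chr15:61868649-61868948, mm9, plus strand, CpG in capitals):
Pvt1 upstream region: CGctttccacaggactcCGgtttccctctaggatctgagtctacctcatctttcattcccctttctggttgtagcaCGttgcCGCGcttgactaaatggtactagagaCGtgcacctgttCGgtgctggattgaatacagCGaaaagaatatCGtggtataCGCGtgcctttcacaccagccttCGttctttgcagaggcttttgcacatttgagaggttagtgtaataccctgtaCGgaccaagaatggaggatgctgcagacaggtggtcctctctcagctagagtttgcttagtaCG
The 300 bases held 14 CpG dinucleotides, a GC content of 49.3% and a ratio of observed to expected CpG of 0.767. At 11 of them both strands were covered, which gave 22 cytosines, and 3 further cytosines were covered on a single strand (61868649 and 61868666 on the plus strand, 61868948 on the minus strand). Among 32851 RefSeq promoter windows of the same length (GRCm38), 36.3% held as many CpG dinucleotides or more. The palindrome CACGTG, the E-box that Myc binds, had no match (7.15% of the promoter windows had one), and GGGCGG had no match on either strand (35.7% of windows), nor had TGACGTCA (1.79% of windows). ACGTG matched at 2 places on either strand (19.6% of windows) and GCGTG at 1 place (32.4% of windows), and no match of one overlapped a match of the other. These are matches of letters only.

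Each of the 25 cytosines was read at least 179 times in every sample, and the highest coverage was 6887 read-outs. Plus-strand and minus-strand read-outs differed in number, with sample medians of 1147 to 5513 on the plus strand and 669 to 6837.5 on the minus strand, and the minus-strand cytosine at 61868834 had the lowest coverage. The 95% confidence interval (Wilson) of a 49.7% C share runs from 42.5% to 57.0% at 179 read-outs, and that of a 50% share from 47.8% to 52.2% at the median of 1970 read-outs. These intervals cover counting error only, since PCR copies were not told apart. At the 126 covered non-CpG cytosines of the same stretch, the median C share lay between 0.0895% and 0.284% in the 12 samples, which is the background of unconverted read-outs. In the spike-in 5hmC control, oxidation efficiency was 0.756, 0.443 and 0.717 in replicates 1 to 3 of v6.5, against 0.598, 0.512 and 0.438 in Tet2kd replicates 1 to 3. The means were 0.639 ± 0.170 and 0.516 ± 0.080 (SD, n = 3), and the values overlapped. They rest on the C share of the control, which was 81.7% to 82.9% in BS-seq in all replicates, and in oxBS-seq 19.98, 45.6 and 23.3% for v6.5 and 33.0, 40.02 and 46.6% for Tet2kd.

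In v6.5 cells the stretch was partly methylated. Averaged over the 25 cytosines, the BS-seq C share was 61.4, 64.4 and 65.6% in the 3 replicates, a mean of 63.8% ± 2.18 (SD, n = 3). Single cytosines had means from 49.3% to 83.0%. Across the 25 cytosines, Pearson's r between BS-seq replicates of v6.5 was 0.925 to 0.971, and between oxBS-seq replicates 0.886 to 0.934. In Tet2kd it was 0.921 to 0.969 for BS-seq and lower, 0.751 to 0.805, for oxBS-seq. The points share library and amplicon and are not independent, so no p is given. The highest level was found at 61868649, the CpG farthest from Pvt1, where 79.7, 82.8 and 86.5% of BS-seq read-outs were C in the v6.5 replicates and 87.5, 91.0 and 92.6% in the Tet2kd replicates. The oxBS-seq shares were 75.6, 74.8 and 78.7% in v6.5, against 91.3, 90.5 and 86.5% in Tet2kd. The lowest was found at 61868726 on the minus strand, whose values are given further on.

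Knockdown samples had higher C shares at every cytosine. In BS-seq, the mean over the 25 cytosines was 77.2, 78.5 and 79.8% in the Tet2kd replicates, with a mean of 78.5% ± 1.28 (SD, n = 3) that was 14.7 percentage points above v6.5. The oxBS-seq means were 55.0, 52.2 and 54.9% in the v6.5 replicates and 74.7, 77.1 and 75.1% in the Tet2kd replicates. Their averages of 54.0% ± 1.60 and 75.6% ± 1.26 (SD, n = 3) differed by 21.6 percentage points. At 25 of 25 cytosines all 3 Tet2kd samples lay above all 3 v6.5 samples in BS-seq, and likewise at 25 of 25 in oxBS-seq. Over all 384 CpG cytosines this held for 56.2% in BS-seq and for 49.2% in oxBS-seq. The gain of single cytosines ran from 7.37 to 21.5 percentage points in BS-seq (median 14.7) and from 12.8 to 29.4 in oxBS-seq (median 22.1).

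**Figure D1:**
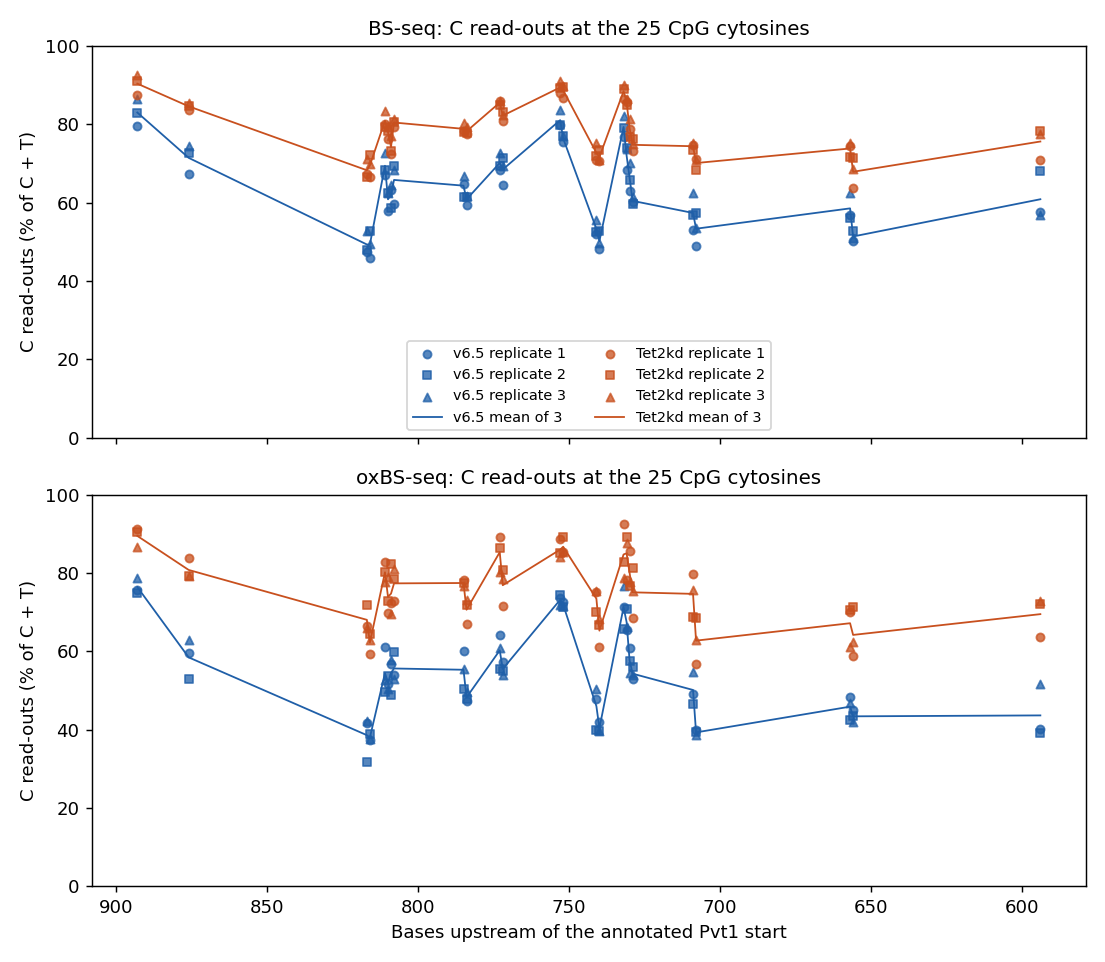
C share (percent of C and T read-outs) at each of the 25 CpG cytosines against the number of bases upstream of the annotated Pvt1 start, for BS-seq (top) and oxBS-seq (bottom). Each point is 1 sample and each line the mean of 3 replicates, v6.5 in blue and Tet2kd in orange. At all 25 positions the 3 Tet2kd points lie above the 3 v6.5 points in both assays, and both lines rise and fall at the same cytosines.

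Each cytosine was tested by quasi-binomial logistic regression, in which the dispersion carries the spread between replicates, with Benjamini-Hochberg adjustment over all 384 CpG cytosines and a threshold of 0.05. In BS-seq the C share rose in Tet2kd at 25 of 25 cytosines, against 53.4% of all CpG cytosines tested, with adjusted p from 0.00145 to 0.0348. The median odds ratio (the odds of a C read-out in Tet2kd over those in v6.5) was 2.34, with a range of 1.85 to 2.68. In oxBS-seq the share rose at 22 of 25, against 33.6% of all, and the median odds ratio was 2.55, with a range of 1.73 to 3.19. The log odds ratio had a median of 0.850 over the 25 cytosines and 0.669 over all 384 in BS-seq, and of 0.937 and 0.565 in oxBS-seq. The 3 cytosines without a call in the quasi-binomial test of oxBS-seq were 61868733 on the plus strand (adjusted p = 0.0534), 61868810 on the plus strand (0.226) and 61868811 on the minus strand (0.0611), and at each of them the Tet2kd samples were still above the v6.5 samples. The oxBS-seq count depended on single libraries. It was 2 without v6.5 replicate 1, 11 without v6.5 replicate 2, 3 without v6.5 replicate 3 and 12 without Tet2kd replicate 3. With 1 replicate left out, the mean difference stayed between 20.7 and 22.1 percentage points. With the replicate number as a block between genotypes, the oxBS-seq count was 0 and the BS-seq count 23. The share called over all 384 is not given here for these runs, so a loss particular to the stretch cannot be told from a general one. Fisher's exact test on read-outs summed over replicates, which leaves out the spread between replicates, called 25 of 25 in BS-seq (73.2% of all) and 25 of 25 in oxBS-seq (75.8% of all).

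The gain was larger where v6.5 was lower. The 5 cytosines with the lowest BS-seq share in v6.5 gained 19.3 percentage points on average and the 5 with the highest gained 10.2. In oxBS-seq the corresponding gains were 24.6 and 14.3 percentage points. Across the 25 cytosines, r between the v6.5 level and the gain was -0.905 in BS-seq and -0.829 in oxBS-seq. The v6.5 level enters the gain with a minus sign, and shares cannot pass 100%, so this is a description and no p is given. Levels in v6.5 and Tet2kd were correlated at r = 0.976 in BS-seq and 0.953 in oxBS-seq.

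The cytosines with the smallest oxBS-seq p among those called in both assays lay between 61868726 and 61868802. At 61868726 on the minus strand, shown as ggcaaCGtgct in the orientation of its own strand, the v6.5 replicates had a C share of 45.8, 52.8 and 49.3% in BS-seq and the Tet2kd replicates one of 66.4, 72.2 and 69.9%. After oxidation, the shares were 37.5, 38.9 and 37.5% in v6.5, against 59.4, 64.3 and 62.8% in Tet2kd. All Tet2kd values exceeded all v6.5 values, with a quasi-binomial odds ratio in BS-seq of 2.65 (log odds ratio 0.976, SE 0.093, adjusted p = 0.00253), and in oxBS-seq the odds ratio was 2.65 (log odds ratio 0.974, SE 0.071, adjusted p = 0.00516). The dyad at 61868757 and 61868758 had both of its cytosines in this set. On the plus strand (agagaCGtgca), BS-seq gave C shares of 64.7, 61.5 and 66.8% in v6.5 and of 78.2, 77.9 and 80.4% in Tet2kd. With oxBS-seq the 3 v6.5 values were 60.04, 50.3 and 55.5% and the 3 Tet2kd values 78.2, 77.4 and 76.7%. On the minus strand (gtgcaCGtctc), the BS-seq C share was 59.5, 61.3 and 61.7% in the v6.5 replicates and 77.6, 77.8 and 79.3% in the Tet2kd replicates. By oxBS-seq the v6.5 replicates had 47.2, 47.9 and 49.6% and the Tet2kd replicates 66.9, 71.8 and 73.1%. The groups did not overlap on either strand, and the quasi-binomial odds ratios in oxBS-seq were 2.64 and 2.54 (adjusted p = 0.00994 and 0.00994). At 61868790 on the minus strand (cttttCGctgt), one of the most methylated positions, 75.4, 76.9 and 76.9% of BS-seq read-outs were C in the v6.5 replicates and 86.6, 89.6 and 89.9% in the Tet2kd replicates. The oxBS-seq shares were 72.7, 71.4 and 71.6% in v6.5, against 85.3, 89.3 and 85.4% in Tet2kd. The v6.5 replicates lay close together there, and the gains of 12.3 percentage points in BS-seq and 14.8 in oxBS-seq were larger than their spread. The cytosine at 61868802 on the minus strand (taccaCGatat) began lower, and the v6.5 replicates had a C share of 48.1, 52.8 and 49.6% in BS-seq and the Tet2kd replicates one of 70.6, 73.4 and 71.0%. After oxidation, the shares were 41.9, 39.6 and 39.6% in v6.5, against 61.0, 66.6 and 68.2% in Tet2kd. Its gain of 21.5 percentage points was the highest of the 25 in BS-seq.

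The difference between assays, which reads 5hmC to the extent that oxidation was complete, was larger in v6.5 when averaged over the stretch. Averaged over the 25 cytosines, BS-seq exceeded oxBS-seq by 6.39, 12.2 and 10.7 percentage points in v6.5 replicates 1 to 3 (mean 9.77 ± 3.02, SD, n = 3) and by 2.496, 1.47 and 4.69 in the Tet2kd replicates (mean 2.88 ± 1.64, SD, n = 3). Every v6.5 value exceeded every Tet2kd value. Neither these differences nor the tests below were corrected for oxidation efficiency, whose mean was 0.639 in v6.5 and 0.516 in Tet2kd. At a lower efficiency the same 5hmC gives a smaller difference, and the part of efficiency in this contrast was not tested. In v6.5, BS-seq was above oxBS-seq in all 3 replicates at 25 of 25 cytosines, against 48.7% of all 384. In Tet2kd this held at 11 of 25, against 29.9% of all. The mean difference of single cytosines ran from 4.51 to 17.2 points in v6.5 and from -1.05 to 7.60 in Tet2kd. With replicate as a block, the quasi-binomial test called 0 of 25 cytosines for a difference between assays in v6.5 (0% of all 384 CpG cytosines). In Tet2kd it called 0 of 25 (0% of all). Its unadjusted p was under 0.05 at 8 of 25 in v6.5, against 72 of all 384, and at 3 of 25 in Tet2kd, against 52 of all 384. Fisher's exact test on the summed read-outs called a difference at 25 of 25 in v6.5 (64.3% of all) and 22 of 25 in Tet2kd (71.4% of all). No cytosine had an interaction of assay and genotype past the threshold of the quasi-binomial test (0 of 25, 0% of all). At an unadjusted p under 0.05 there were 0 of 25, against 34 of all 384. The smaller assay difference in Tet2kd was thus not shown at any single cytosine. Across cytosines the assay difference was also less repeatable than the C share: r between replicates was 0.0262 to 0.691 in v6.5 and -0.0447 to 0.152 in Tet2kd.

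**Figure D2:**
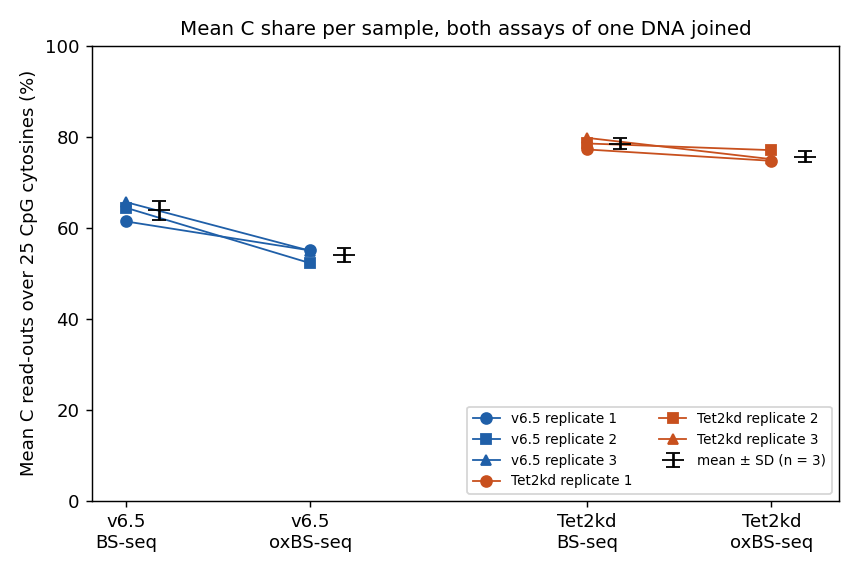
Mean C share (percent) over the 25 CpG cytosines in each of the 12 samples, with the BS-seq and oxBS-seq values of 1 replicate joined by a line. Black marks give the mean ± SD of 3 replicates. The lines fall by 6.39 to 12.2 percentage points in v6.5 (blue) and by 1.47 to 4.69 in Tet2kd (orange), and the orange points lie above the blue points of the same assay. The values are not corrected for oxidation efficiency.

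Next, proportions of unmodified C, 5mC and 5hmC in each replicate came from Lux at the cytosine level, a Bayesian model that reads both assays together and takes the oxidation efficiency of the replicate into account. The mean 5mC proportion over the 25 cytosines was 0.535, 0.381 and 0.513 in v6.5, against 0.720, 0.743 and 0.696 in Tet2kd, means of 0.476 ± 0.083 (SD, n = 3) and 0.720 ± 0.024 (SD, n = 3). The lowest Tet2kd replicate was above the highest v6.5 replicate. The C state was 0.378, 0.352 and 0.337 in v6.5, against 0.212, 0.200 and 0.192 in Tet2kd, again without overlap, and varied least between replicates. The mean 5hmC proportion was 0.088, 0.266 and 0.150 in v6.5, against 0.068, 0.057 and 0.112 in Tet2kd, means of 0.168 ± 0.091 (SD, n = 3) and 0.079 ± 0.029 (SD, n = 3). For 5hmC the genotypes overlapped, because v6.5 replicate 1 was below Tet2kd replicate 3. The differences of the means were 0.243 for 5mC, -0.0889 for 5hmC and -0.155 for C.

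Counted by cytosine, the mean 5mC was higher and the mean 5hmC lower in Tet2kd at 25 of 25. The share over all 384 is not given here for these means, so the count does not set the stretch apart. Its cytosines also share libraries and amplicon. All 3 replicates of Tet2kd were above all 3 of v6.5 in 5mC at 23 of 25 cytosines (46.1% of all 384), whereas for 5hmC all 3 were below at 2 of 25 (7.81% of all). These 2 were 61868801 on the plus strand and 61868813 on the minus strand, named after their values were seen. In each genotype the replicate with the lowest oxidation efficiency had the highest mean 5hmC. In v6.5, replicate 2, with the lowest efficiency, had the highest 5hmC at 20 of 25 cytosines, and in Tet2kd replicate 3, with the lowest efficiency, had the highest at 14 of 25. The order did not follow the efficiency throughout: in Tet2kd, replicate 1, with the highest efficiency, had a mean 5hmC of 0.068 and was highest at 7 cytosines, against 0.057 and 4 cytosines for replicate 2. The part of the efficiency in these estimates was not tested. Without v6.5 replicate 2 the difference in mean 5hmC was -0.0390, and the one in mean 5mC was 0.196. With the assays simply subtracted, the changes were -0.0688 for 5hmC and 0.216 for 5mC.

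**Figure D3:**
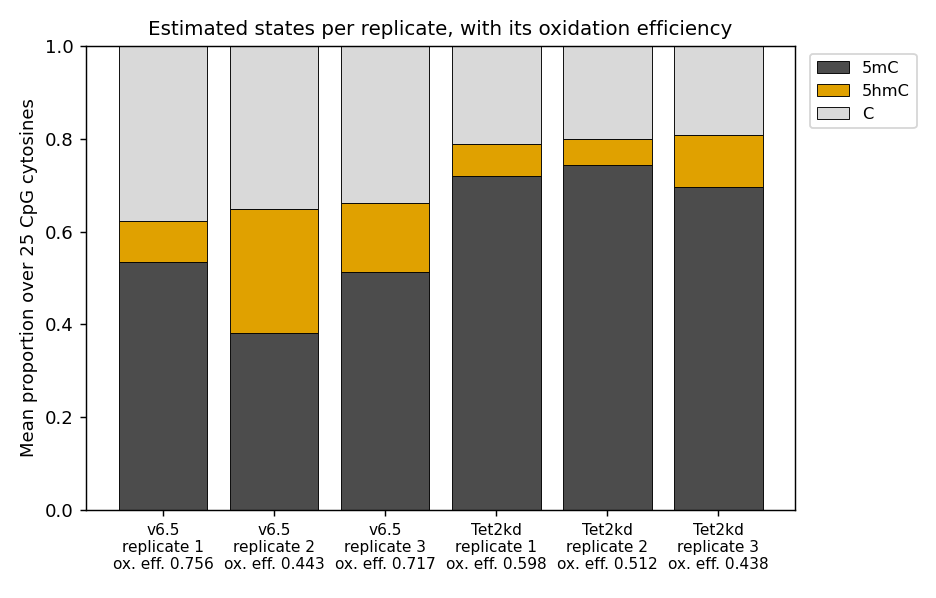
Stacked bars of the mean proportions of 5mC (dark), 5hmC (yellow) and C (light) over the 25 CpG cytosines in each of the 6 replicates. The C part holds unmodified cytosine and the forms oxidized further than 5hmC. The oxidation efficiency of the replicate from the spike-in control is given below each bar. The 5mC part is 0.381 to 0.535 in v6.5 and 0.696 to 0.743 in Tet2kd, while the 5hmC part is 0.266 in v6.5 replicate 2 and 0.057 to 0.150 in the other 5 replicates.

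The Bayes factor (BF) of the model compares a difference between the genotypes with none. It was above 1 at 7 of 25 cytosines (7.55% of all 384) and above 3 at 0 of 25 (1.04% of all), with a median of 0.611 and a highest value of 2.70. Without v6.5 replicate 2 it was above 1 at 0 of 25, and without v6.5 replicate 1 at 12 of 25 and above 3 at 3 of 25. These counts depended on the assumed oxidation: with ideal experimental parameters the BF was above 1 at 1 cytosine. With efficiencies from control positions on both strands it was above 1 at 19 and above 3 at 13. The 33 positions that this adds read as C at 99.2% or more in every sample of both assays. They thus hold no reading of oxidation, and these 2 counts rest on efficiencies lowered by them. Another random seed gave 1 cytosine above 3. These alternatives were run for the 25 cytosines only, so no share over all 384 stands beside their counts. A change particular to the stretch cannot be told from a general one. The 5 cytosines with the largest BF are shown with 5 bases on either side on their own strand and the CpG in capitals:
61868948 minus strand: aaggaCGtact
61868725 plus strand: tagcaCGttgc
61868802 minus strand: taccaCGatat
61868726 minus strand: ggcaaCGtgct
61868834 minus strand: aagaaCGaagg
The largest BF, 2.70, was at 61868948, the CpG nearest to Pvt1 (594 bases before its start), where BS-seq gave C shares of 57.6, 68.1 and 56.9% in v6.5 and of 70.9, 78.4 and 77.6% in Tet2kd. With oxBS-seq the 3 v6.5 values were 40.2, 39.0 and 51.6% and the 3 Tet2kd values 63.7, 72.0 and 72.8%. Tet2kd was above v6.5 in every sample of both assays. The estimated 5hmC was 0.233, 0.629 and 0.083 in the v6.5 replicates and 0.120, 0.125 and 0.111 in the Tet2kd replicates, so that replicate 2 alone held the high value, and v6.5 replicate 3 was below the Tet2kd replicates. At 61868725 on the plus strand (BF 2.49), the BS-seq C share was 47.3, 47.9 and 52.8% in the v6.5 replicates and 67.3, 66.4 and 71.1% in the Tet2kd replicates. By oxBS-seq the v6.5 replicates had 41.6, 31.8 and 42.3% and the Tet2kd replicates 66.5, 71.7 and 65.9%. The oxBS-seq gain of 29.4 percentage points was the highest of the 25. Its 5mC was 0.400, 0.129 and 0.384 in v6.5, against 0.656, 0.683 and 0.603 in Tet2kd. The BF was 1.43 at 61868802 and 1.40 at 61868726, whose read-outs are given above. At 61868834 on the minus strand (BF 1.37), 49.0, 57.4 and 53.6% of BS-seq read-outs were C in the v6.5 replicates and 71.1, 68.4 and 70.8% in the Tet2kd replicates. The oxBS-seq shares were 39.8, 39.4 and 38.7% in v6.5, against 56.7, 68.5 and 62.9% in Tet2kd. The genotypes were apart in both assays, on the lowest coverage of the stretch.

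**Figure D4:**
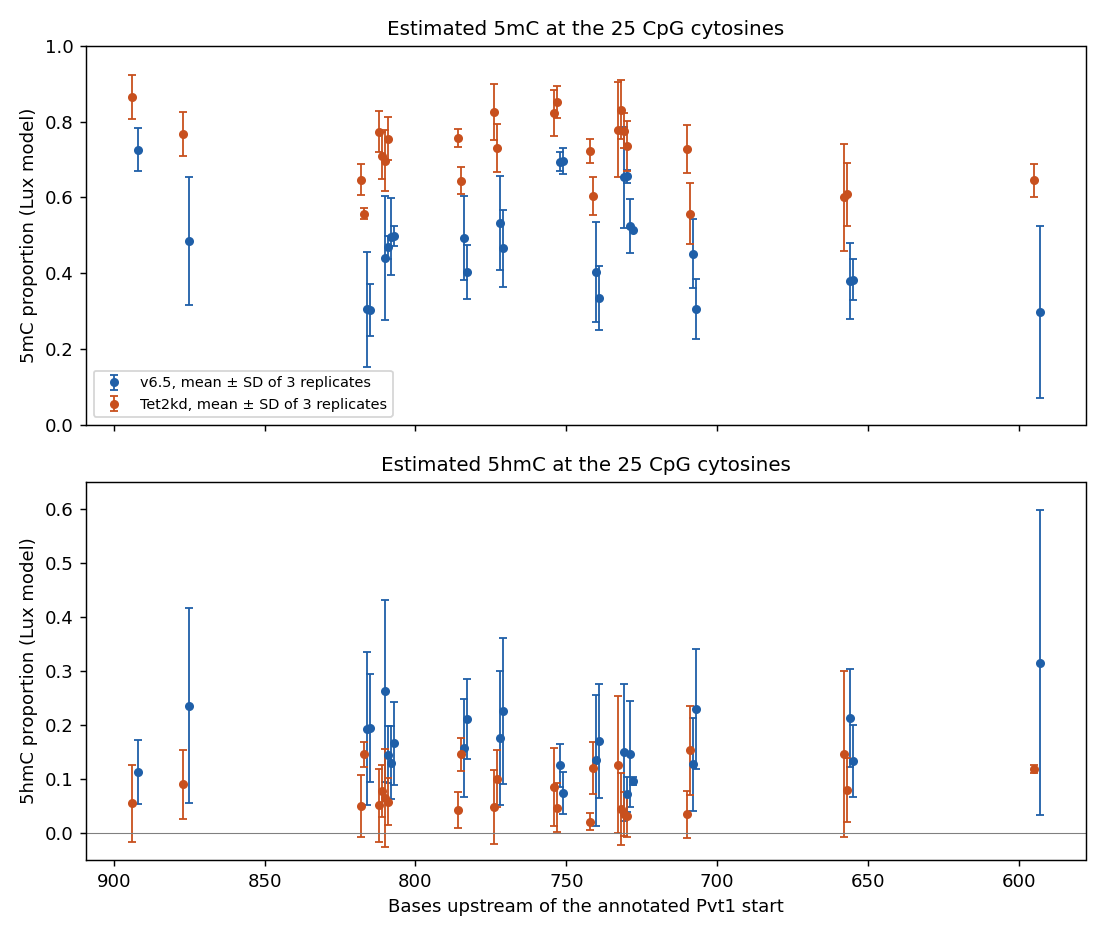
Estimated proportions of 5mC (top) and 5hmC (bottom) at the 25 CpG cytosines against the number of bases upstream of the annotated Pvt1 start, shown as mean ± SD of 3 replicates, with v6.5 in blue and Tet2kd in orange, drawn 1 base to either side. Orange 5mC means (0.557 to 0.866) lie above the blue means (0.299 to 0.726) at each cytosine. Orange 5hmC means lie below the blue means at each cytosine.

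The mean 5hmC of single cytosines in v6.5 ran from 0.0717 to 0.315, with a median of 0.157, and in Tet2kd from 0.0210 to 0.153, with a median of 0.0654. The model cannot give a proportion below 0, whereas the mean assay difference in Tet2kd went down to -1.05 percentage points. The lowest estimates thus do not by themselves show that 5hmC was present. The highest v6.5 means were at 61868948 (0.315 ± 0.282, SD, n = 3) and at 61868731 on the plus strand (0.262 ± 0.168, SD, n = 3). At the latter (gttgcCGcgct), the v6.5 replicates had a C share of 67.2, 68.3 and 72.8% in BS-seq and the Tet2kd replicates one of 80.1, 79.3 and 83.3%. After oxidation, the shares were 61.1, 49.5 and 52.6% in v6.5, against 82.7, 80.2 and 77.6% in Tet2kd. The mean difference between the assays was 15.0 percentage points in v6.5 and 0.729 in Tet2kd. The lowest v6.5 means were at 61868811 on the minus strand (0.0717 ± 0.0317, SD, n = 3) and at 61868790 (0.0742 ± 0.0388, SD, n = 3), both among the more methylated cytosines. At 61868811 (gcacgCGtata), BS-seq gave C shares of 68.4, 74.0 and 73.6% in v6.5 and of 85.6, 84.9 and 86.5% in Tet2kd. With oxBS-seq the 3 v6.5 values were 65.5, 70.8 and 66.1% and the 3 Tet2kd values 78.1, 89.2 and 87.7%. There v6.5 replicate 2 had a higher oxBS-seq share than the other v6.5 replicates.

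The 2 strands of a CpG dyad did not have the same level in every sample. In single dyads and samples, the plus-strand share minus the minus-strand share ran from -11.3 to 22.9 percentage points. Averaged over the 11 dyads, in which values of both signs enter, the plus-strand share minus the minus-strand share was 4.85, 0.436 and 6.23 percentage points in v6.5 BS-seq replicates 1 to 3 and 2.36, -0.225 and 2.88 in Tet2kd BS-seq. In oxBS-seq it was 6.29, -1.22 and 6.14 in v6.5, against 11.98, 1.59 and 0.540 in Tet2kd. The sign was thus positive in 10 of 12 samples. Both strands gained: in BS-seq the 11 plus-strand cytosines gained 14.03 percentage points on average and the 11 minus-strand cytosines 16.2, and in oxBS-seq 22.2 and 21.3. The dyad with the largest strand difference, 7.77 points over the 12 samples, was at 61868833 and 61868834, and its plus strand was higher in 11 of 12. On its plus strand (gccttCGttct), the BS-seq C share was 53.0, 56.8 and 62.3% in the v6.5 replicates and 74.7, 73.4 and 75.1% in the Tet2kd replicates. By oxBS-seq the v6.5 replicates had 49.2, 46.5 and 54.7% and the Tet2kd replicates 79.6, 68.7 and 75.6%. The minus strand, given above, had the lowest coverage. The dyad at 61868731 and 61868732 came next, with 5.07 points and the plus strand higher in 10 of 12 samples. On its minus strand (aagcgCGgcaa), 57.8, 62.3 and 62.4% of BS-seq read-outs were C in the v6.5 replicates and 76.3, 78.3 and 79.3% in the Tet2kd replicates. The oxBS-seq shares were 51.6, 53.8 and 50.5% in v6.5, against 69.8, 72.9 and 79.0% in Tet2kd. Both strands of both dyads were higher in Tet2kd without overlap.

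The stretch was also divided into 3 parts of equal length. The 8 cytosines in the first part gained 14.4 percentage points in BS-seq, the 14 in the middle part 14.7 and the 3 in the last part, nearest to Pvt1, 15.5. The gains in oxBS-seq were 22.3, 20.9 and 22.7. The mean gain thus varied little between the 3 parts. Single cytosines ran from 7.37 to 21.5 percentage points in BS-seq and from 12.8 to 29.4 in oxBS-seq. The last part had the lowest v6.5 shares, with 56.9% ± 2.07 (SD, n = 3) in BS-seq and 44.3% ± 2.53 (SD, n = 3) in oxBS-seq. In the middle part, the estimated 5mC of v6.5 was 0.509 ± 0.070 (SD, n = 3) and that of Tet2kd 0.740 ± 0.016 (SD, n = 3). By the base before the CpG, the 10 cytosines after A had a v6.5 BS-seq share of 58.6% ± 1.79 (SD, n = 3), against 68.7% ± 2.66 (SD, n = 3) for 5 after C, 68.0% ± 2.56 (SD, n = 3) for 6 after G and 64.3% ± 2.42 (SD, n = 3) for 4 after T. By the base after it, 7 cytosines followed by C had 70.9% ± 2.19 (SD, n = 3) and 10 followed by T had 58.5% ± 2.09 (SD, n = 3). The cytosines of a class share neighbours and dyads, and no test was made. In BS-seq the gain was 16.3 percentage points in the class after A and 12.5 in the class after C.

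Among the 14 loci, the stretch had rank 5 by its gain in BS-seq and rank 2 in oxBS-seq. The 13 other loci, which include loci picked for no difference, had a mean gain of 8.34 percentage points in BS-seq and 9.64 in oxBS-seq, which the gain of the stretch exceeded by 6.37 and 11.9 points. Relative to the mean of the other loci, its BS-seq share was -1.49, 1.49 and 1.60 points in replicates 1 to 3 of v6.5, against 5.71, 7.25 and 7.74 in Tet2kd, and its oxBS-seq share was -3.82, -7.20 and -4.59 in v6.5, against 6.68, 7.63 and 5.92 in Tet2kd. The genotypes did not overlap in either assay. The smallest p of an exact permutation test with 3 against 3 replicates would be 0.1, and the mean of chosen cytosines gets no p. The mean change in 5hmC over the 13 other loci was 0.00296, against -0.0889 here. The most similar loci in mean change of 5mC and 5hmC were the one inside Igsf21 (chr4:139783638-139783863, 18 CpG cytosines) and the one that overlaps Gm11949 (chr11:3525643-3525894, 40 CpG cytosines). Igsf21 had changes of 0.298 in 5mC and -0.0628 in 5hmC (distance 0.0601), and Gm11949 had 0.181 and -0.00118 (distance 0.108). In oxBS-seq, Igsf21 rose from 43.6% ± 1.38 to 72.1% ± 0.403 and Gm11949 from 53.7% ± 4.22 to 72.1% ± 0.544 (SD, n = 3), compared with 54.0% ± 1.60 to 75.6% ± 1.26 upstream of Pvt1. All cytosines were without overlap between genotypes in both assays upstream of Pvt1 and in Igsf21, and in Gm11949 this held for 97.5% in BS-seq and 82.5% in oxBS-seq.

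**Figure D5:**
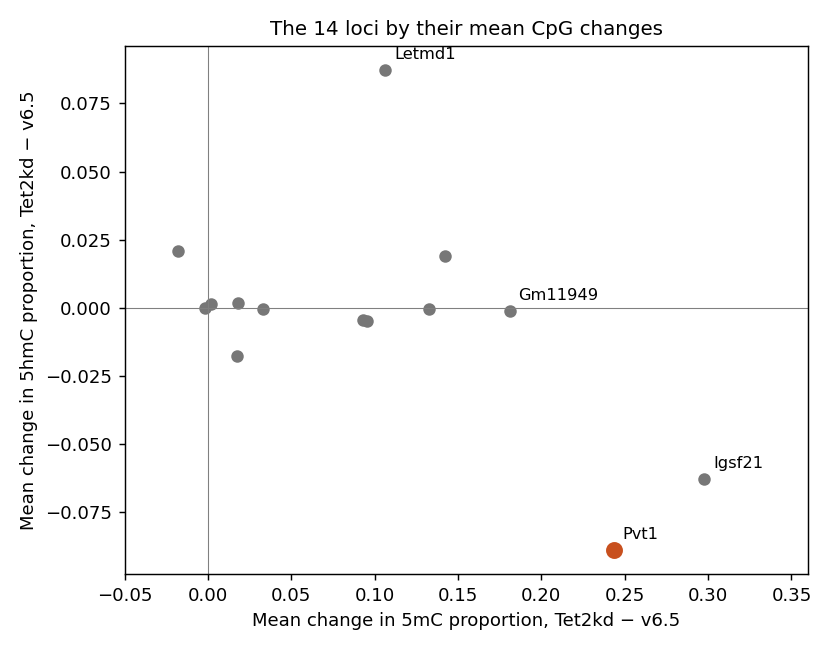
Mean change in 5mC (x axis, proportion) and in 5hmC (y axis, proportion) from v6.5 to Tet2kd for the CpG cytosines of each of the 14 loci, with the locus upstream of Pvt1 in orange and 3 others named by an overlapping gene. The Pvt1 point (0.243, -0.0889) and the Igsf21 point (0.298, -0.0628) lie apart from the other loci at the lower right.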

How the data were processed

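BS-seq and oxBS-seq libraries covered 14 loci in 3 v6.5 and 3 Tet2kd replicates, with 4505229 to 18096597 genomic read-outs per sample. The authors aligned the reads to mm9 and lambda DNA with Bismark 0.7.12 and Bowtie2 and deposited, for each cytosine and sample, the count of C and T read-outs and the percent of C. Their extractor kept cytosines with 10 or more read-outs, and replicates were not pooled. The deposited percent served only to check the counts, and C shares were recomputed from them.

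Cytosines with at least 10 read-outs in all 12 samples were kept. Groups followed the genotype and assay labels. Genotypes were compared per cytosine by quasi-binomial logistic regression (dispersion floor 1) over the 384 CpG cytosines, and p-values were adjusted after Benjamini-Hochberg (threshold 0.05). Assays were compared with the replicate as a block, since both assays used 1 DNA. Fisher's exact test on summed read-outs was an alternative. The cytosine-level Lux model was reimplemented as a Markov chain Monte Carlo sampler (Dirichlet prior 0.8, 2000 warm-up sweeps, 1000 draws 20 sweeps apart) with conversion and oxidation efficiencies fixed from spike-in controls (26 C, 35 5mC and 27 5hmC positions), a sequencing error of 0 and a Savage-Dickey Bayes factor. The test and the sampler were checked on simulated data. Described in full are the 5 cytosines with the largest Bayes factor, up to 5 called in both assays with the smallest oxBS-seq p, the 2 with the highest and the 2 with the lowest 5hmC in v6.5, the 2 dyads that differ most between strands, and the 2 most similar loci by distance in mean 5mC and 5hmC change. The members and lists were chosen with earlier results of these data known. Computations ran in Python 3.11.15 with scipy 1.17.1, numba 0.67.0, numpy 2.4.6, pysam 0.24.0, pandas 2.3.3 and matplotlib 3.10.9. The other loci were used only for adjustment and comparison.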

Additional observations from a re-analysis of the deposited data

Results flagged for a closer look

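Signal was also present at cytosines outside CpG, which enter no comparison above. Of the 126 covered non-CpG cytosines of the stretch, 7 had a C share above the highest cytosine of the unmodified spike-in control (0.623%) in all 12 samples. All 7 are followed by A, as are 44 of the 126. They are shown with 5 bases before the C and the CpA in capitals, on their own strand:
61868658 plus strand: ttccaCAggac
61868761 plus strand: acgtgCAcctg
61868776 minus strand: caatcCAgcac
61868786 plus strand: gaataCAgcga
61868823 plus strand: tttcaCAccag
61868872 minus strand: tattaCActaa
61868907 minus strand: gtctgCAgcat
The highest was at 61868761, with BS-seq C shares of 11.01, 12.2 and 12% in v6.5 (mean 11.8%) and of 13.1, 12.1 and 12.7% in Tet2kd. Its oxBS-seq shares of 11.7, 4.84 and 9.19% in v6.5 and of 17.9, 13.96 and 10.1% in Tet2kd were more spread. It was followed by 61868823, where the mean v6.5 BS-seq share was 8.18% ± 0.864 (SD, n = 3) and the 12 samples ran from 3.85% to 12.05%. The other 5 had mean v6.5 BS-seq shares of 4.07% at 61868872, 2.89% at 61868658, 2.19% at 61868776, 2.06% at 61868907 and 1.20% at 61868786. Over the 44 CpA cytosines the mean share was 0.655% to 1.58% in the 12 samples, against 0.173% to 0.313% over the 82 cytosines followed by C or T. The CpA mean in BS-seq was 1.07% ± 0.0595 (SD, n = 3) for v6.5 and 1.34% ± 0.0434 (SD, n = 3) for Tet2kd, and in oxBS-seq 0.832% ± 0.184 (SD, n = 3) and 1.40% ± 0.278 (SD, n = 3). No test was made of these cytosines, since they were chosen after their values were seen.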

How the results depend on the processing

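No result changed direction under any alternative tried. The BS-seq count of 25 cytosines was 17 to 25 with 1 replicate left out, and the oxBS-seq count of 22 was 2 to 22. The oxBS-seq count fell to 3 at an adjusted p threshold of 0.01. A coverage minimum of 1000 left 13 cytosines to test, and 13 were called in BS-seq and 12 in oxBS-seq. For these counts, the share called over all CpG cytosines of the experiment is not given here. A loss particular to the stretch thus cannot be told from a general one. Between assays, the count of 0 in both genotypes became 25 in v6.5 and 22 in Tet2kd with Fisher's exact test, which leaves out the spread between replicates; the interaction count stayed at 0 in every alternative run. With ideal experimental parameters, the changes in 5mC and 5hmC were 0.210 and -0.0573 and the Bayes factor was above 1 at 1 cytosine. With oxidation efficiency taken from control positions on both strands (0.177 to 0.303), they were 0.318 and -0.158, and the factor was above 1 at 19 cytosines and above 3 at 13. In that alternative the 33 positions of the other strand read as C at 99.2% or more in every sample of both assays. They thus hold no reading of oxidation and lower the efficiency taken from both strands. The Bayes factor was above 1 at 0 to 12 cytosines and above 3 at 0 to 3 with 1 replicate left out, and above 3 at 1 cytosine with another random seed. Without 1 replicate, the change in 5mC was 0.196 to 0.276 and that in 5hmC -0.133 to -0.0390. The excess of the gain over the other loci was 5.36 to 6.96 percentage points for BS-seq and 10.9 to 12.6 for oxBS-seq without 1 replicate, an alternative chosen after seeing the data.

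With the replicate number as a block between genotypes, 23 cytosines were called in BS-seq and 0 in oxBS-seq. The share over all CpG cytosines of the experiment is not given here for the block either, so the same limit holds. The 3 same-numbered differences in mean C share were 14.1 to 15.8 percentage points for BS-seq, 19.7 to 24.9 for oxBS-seq, those in 5mC 0.183 to 0.362 and those in 5hmC -0.209 to -0.0196. Deviations of same-numbered samples correlated at 0.179, 0.0766 and 0.115 in BS-seq and at 0.0930, -0.0867 and -0.175 in oxBS-seq. In BS-seq each sample correlated best with its own number, and in oxBS-seq not. The main tests did not take the numbers to pair the cultures of the genotypes, and these values do not settle whether they do. Without the block between assays the counts stayed at 0. The cause of these changes was not tested. Replicates spread more than counting error alone would give, with a median dispersion of 5.73 in BS-seq and 19.1 in oxBS-seq over the 25 cytosines.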
